A study of Mus musculus with 3 samples.

Results

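The lysosomal enzymes and cathepsins of a mouse glioblastoma (GBM) model are described here as a set of 33 genes, listed by symbol, out of 50262 genes in the single-cell table. Every member was found. They comprise 9 cysteine cathepsins, 4 other lysosomal proteases, 7 glycosidases, 6 lipid hydrolases, activators and sterol carriers, and 7 proteins of the lysosomal membrane.

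Lysosomes are acidic vesicles that break down material taken up from outside the cell or delivered by autophagy. Most of their hydrolases are made as inactive precursors, carried from the Golgi by mannose 6-phosphate receptors or sortilin, and activated at low pH, while LAMP proteins line the membrane and NPC1 and NPC2 hand cholesterol out of the lumen. In the brain the pathway is prominent in microglia, the resident phagocytes, and in macrophages, where cathepsins also trim the invariant chain and antigens for presentation. Inherited loss of many of these genes causes storage disease with neurodegeneration.

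The study followed GBM from an early to a medium and a large stage, and the samples are 3 sequencing runs that mix these stages. All mice carried a conditional, Cre-dependent transgene of wild-type human EGFR and a conditional luciferase on a Cdkn2a-/- background of mixed strains. Tumors were started in adults by stereotactic injection of a Cre-expressing lentivirus into the striatum, so the transgene was switched on in infected cells and their progeny. Each stage was 1 tumor sample, described as a pool for the early stage, sorted into viable CD45+ (immune) and CD45- cells and loaded as 4 libraries per sort. Libraries of the same tumor and sort are technical repeats, so the tumor (n = 3) is the unit of every test. With the tumor as a block, p-values between sorts set a difference against how far it varied between these tumors. In the class contrasts the spread was shared over all classes fitted together. It is therefore not the spread of the contrasted classes alone. Stage cannot be told apart from the tumor that represents it. Normal brain was not analysed here.

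After filters, 17781 of 20811 cells were kept, 11185 from the CD45+ and 6596 from the CD45- sort, and each tumor and sort held 5381839 to 10808099 UMIs. A UMI marks 1 captured transcript, and levels are given as CPM, the UMIs of a gene per 1000000 UMIs of the same cells. Ptprc, which encodes CD45, was at 227 to 250 CPM in CD45+ cells and at 3.59 to 15.9 in CD45- cells. Between 7.15% and 7.35% of the cells of a run had a barcode that also occurred in another library of that run, and 113 cells (0.635% of those tested) were called doublets. Cells were clustered without any member or other listed lysosomal gene and classed by markers. Microglia-like clusters 0 and 3 were led by cytokine and immediate-early genes (Tnf and Il1a, Rcan1 and Atf3), cluster 2 by Hspa1a and P2ry12, cluster 8 by genes of class II antigen presentation, cluster 5 by Cst7 and Cxcl13, and cluster 6 by Spp1 and Lpl.

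Lysosomal genes are known to share an element with the core CACGTG, bound by TFEB and its relatives, and myeloid genes often carry ETS elements bound by PU.1. RefSeq windows of 250 bases before to 50 after a gene start (GRCm38.p6) were present for 29 of the 33 members and none was present for Asah1, Ctsb, Ctsh and Npc1. On either strand, CACGTG occurred in the windows of 9 of 29 members and in 8.09% of all gene symbols with a window. The longer TCACGTGA, which contains it, occurred in 3 of 29 members (Ctsa, Ctsd and Gla) and in 1.12% of all symbols. GAGGAAGT, a PU.1-type word, occurred in 4 of 29 members (Ctsc, Ctss, Gla and Gusb) and in 3.69% of all symbols. These matches are descriptions of letters and no binding was measured. The stretches below are printed along the gene's own strand with the matched letters in capitals, for some of the members with a match. They were not chosen by abundance. They are Ctsd at chr7:142387908-142387937, Ctsa at chr2:164833749-164833778, Gla at chrX:134601182-134601211, Lgmn at chr12:102439124-102439153, Lamp1 at chr8:13159104-13159133, Ctsf at chr19:4855074-4855103, and Ctss at chr3:95526773-95526802 and Ctsc at chr7:88277923-88277952 with the PU.1-type word on the opposite strand.
Ctsd: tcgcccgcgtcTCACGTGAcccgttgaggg
Ctsa: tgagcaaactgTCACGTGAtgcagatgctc
Gla: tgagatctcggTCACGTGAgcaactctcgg
Lgmn: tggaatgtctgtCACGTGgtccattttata
Lamp1: tggtccagcgccCACGTGatgccgactggc
Ctsf: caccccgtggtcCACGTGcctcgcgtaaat
Ctss: aatgaaagttcACTTCCTCattgtggatgc
Ctsc: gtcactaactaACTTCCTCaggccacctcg

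To ask where in the tumor the lysosomal transcripts lie, the CD45+ and CD45- cells of each tumor were compared. The summed level of the members was 32519, 29038 and 36723 CPM in CD45+ cells of the early, medium and large tumors, or 3.25%, 2.90% and 3.67% of all UMIs. In CD45- cells it was 7639, 6919 and 5621. The sorts did not overlap, with means of 32760 ± 3848 and 6726 ± 1023 (SD, n = 3). Libraries of at least 100 cells from the same tumor and sort stayed close together, for example between 31600 and 33152 in the early CD45+ cells. In the large CD45+ cells they were at 35274 and 37412, while smaller libraries of 91 and 17 cells were higher, at 41506 and 51653.

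The 10 most abundant members held 82.4% to 84.3% of the members' UMIs in CD45+ cells. The aspartic protease Ctsd and the cysteine proteases Ctsb and Ctss had the highest mean levels in CD45+ cells, and the 3 most abundant members held 45.5% to 47.4% of the members' UMIs there. Ctsd was at 5857, 5373 and 7503 CPM in CD45+ cells and at 639, 544 and 354 in CD45- cells. Ctsb stood at 3741, 4365 and 5095 against 930, 872 and 624. Ctss, a protease of class II antigen processing, stood at 5194, 3606 and 4050 against 445, 285 and 41.9. In all of these the 3 CD45+ values lay above the 3 CD45- values. In CD45- cells the leading members were Psap, Ctsb and Lamp1 in each tumor.

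Of the 33 members, 26 were higher in CD45+ cells and 1 was lower at an adjusted p under 0.05 (edgeR's quasi-likelihood test, Benjamini-Hochberg adjustment). Over all 18433 genes tested, 20.4% were higher and 25.7% lower (46.1% in either direction). The members' median log2 fold change was 2.00, and that of all genes was -0.04. Cd68, a lysosomal glycoprotein of phagocytes, had the largest change, at 317, 278 and 379 CPM against 19.5, 16.9 and 3.21, with a log2 fold change of 5.23 ± 0.64 (SE, adjusted p = 0.000827). Laptm5, a lysosomal membrane protein of blood cells, gave 5.05 ± 0.65, Ctss 4.89 ± 0.72 and Ctsd 4.00 ± 0.39 (adjusted p = 0.000274). Ctsb, named for its abundance, gave 2.82 ± 0.34 (adjusted p = 0.000589), less than Man2b1 and Grn below. Scaling by total UMIs alone, without composition factors, moved the median log2 fold change of all genes from -0.04 to -0.40, gave 24 members higher and 2 lower, and changed the split over all genes from 3759 higher and 4744 lower to 2589 and 6559.

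By role, all 4 other proteases (Ctsa, Ctsd, Lgmn and Tpp1) were higher in CD45+ cells, as were 7 of 9 cysteine cathepsins, 6 of 7 glycosidases, 5 of 6 genes of lipid handling and 4 of 7 membrane proteins. Among the glycosidases, Man2b1, the lysosomal alpha-mannosidase, changed most (12.9-fold), while acid alpha-glucosidase, Gaa, was below its CD45- level in every tumor on the CPM scale, at 71.2, 67.7 and 91.4 against 97.9, 95.1 and 96.6. With composition factors, which CPM leaves out, its log2 fold change was 0.02 ± 0.20 (adjusted p = 0.938). Among the lipid group, Grn, the precursor of the granulins, changed most (log2 fold change 3.58). The cholesterol transporter Npc1 was below its CD45- level in every tumor, at 122, 61.5 and 130 against 205, 184 and 164, but its log2 fold change of -0.52 ± 0.27 did not pass (adjusted p = 0.154). Lamp1, Laptm4a and Scarb2, membrane proteins found in most cell types, gave log2 fold changes of 0.32, 0.20 and 0.07, none of which passed, although their mean CPM was lower in CD45+ cells (589, 445 and 219 against 608, 495 and 263). Ctso, the remaining cathepsin that did not pass, gave 0.56 ± 0.20 (adjusted p = 0.0506).

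Ctsk, best known as the collagen-degrading protease of osteoclasts, was the member lower in CD45+ cells. It was at 0.278, 7.09 and 1.30 CPM in CD45+ cells and at 18.3, 24.5 and 9.82 in CD45- cells, a log2 fold change of -2.75 ± 0.72 (adjusted p = 0.0195). The call was lost without a filter on low counts, without the tumor block and in run 2 alone. Among CD45- cells its level was highest in fibroblast-like cells (154 ± 72.2 CPM, SD, n = 3), followed by oligodendrocyte-like cells (30.8 ± 4.73).

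**Figure D1:**
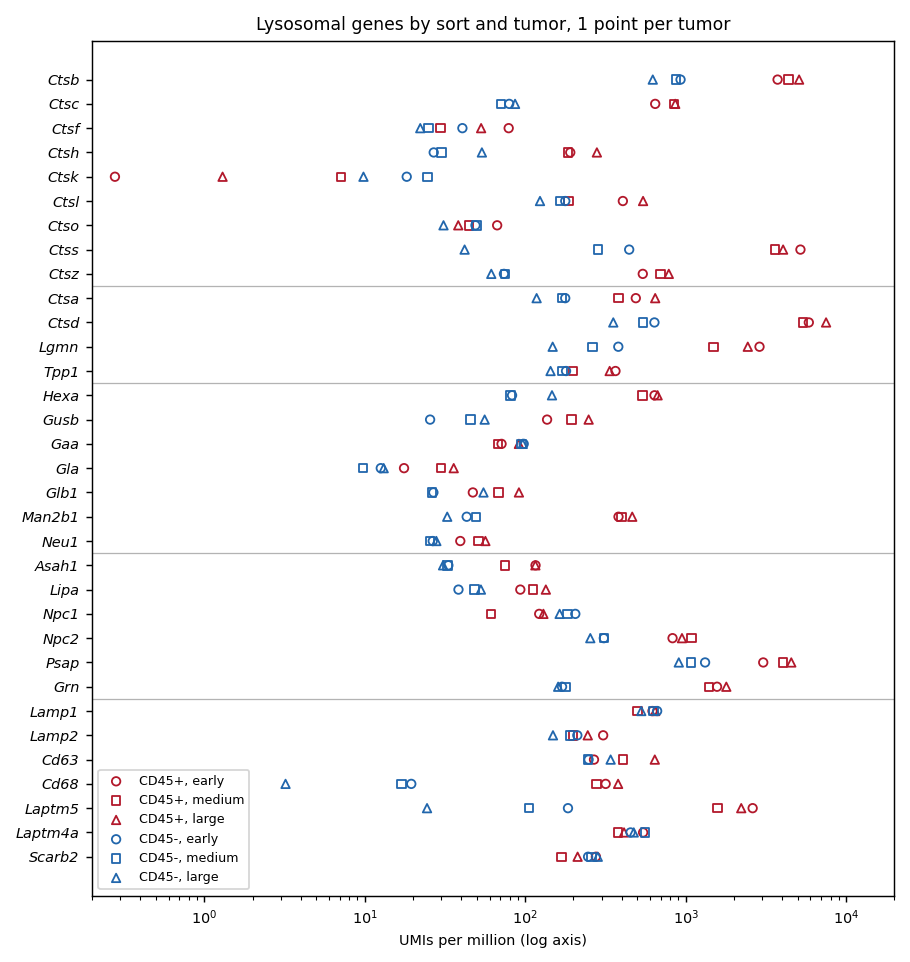
Level of each of the 33 members in CPM (log axis), with 1 point per tumor (circle early, square medium, triangle large) in CD45+ (red) and CD45- (blue) cells, grouped by role between grey lines. For Ctsd, Cd68 and most proteases the red points lie to the right of the blue ones, while for Ctsk, Gaa and Npc1 the red point of each tumor lies to the left of the blue one, and the colors overlap for Lamp1, Laptm4a and Scarb2.

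Microglia-like cells held 91.3%, 59.8% and 65.4% of the members' UMIs of the CD45+ sort in the early, medium and large tumors, where they were 82.5%, 41.3% and 60.5% of the cells. Macrophage or monocyte-like cells held 1.42%, 4.70% and 28.7%. In the CD45- sort, microglia-like cells were 8.77%, 5.49% and 1.28% of the cells but held 29.4%, 20.5% and 3.67% of the members' UMIs, with a summed level of 35831 ± 4598 (SD, n = 3). The CD45- values of Ctss, Cd68 and Laptm5 were likewise lowest in the large tumor, and the part of these cells in the CD45- levels was not tested. Fewer cells of a type and less RNA per cell cannot be told apart in sums over a sort alone. Within the microglia-like cells of the CD45- sort, the summed level was 32740, 41114 and 33638 CPM in the early, medium and large tumors, from 239, 88 and 29 cells.

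The summed level was 36409, 46908 and 42570 CPM in microglia-like cells, a mean of 41962 ± 5276 (SD, n = 3). Border or perivascular macrophage-like cells were at 27521, 34879 and 29470, below the microglia-like value of each tumor. Macrophage or monocyte-like cells were at 25589, 25105 and 44420. They were below the microglia-like value in the early and medium tumors and above it in the large one. When each cell was classed by its own markers, the large value was below the microglia-like one (41001 against 41478). In the medium tumor the class held 231 CD45+ cells. It left out cluster 7, given no class, with 655 CD45+ cells at 38998 CPM in that tumor. Whether those cells belong to it was not tested. Dendritic cell-like cells were at 10631, 11735 and 13969 and T cell-like cells at 3610 ± 276, below every microglia-like, border macrophage-like and macrophage or monocyte-like value. Neutrophil-like cells, a small class in the early (51 cells) and large (27 cells) tumors, were at 13481, 5508 and 10321. Cells of the human EGFR glioma-like clusters were at 6352, 4128 and 5042, where oligodendrocyte-like cells were at 6079.6, 6302 and 6586.

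**Figure D2:**
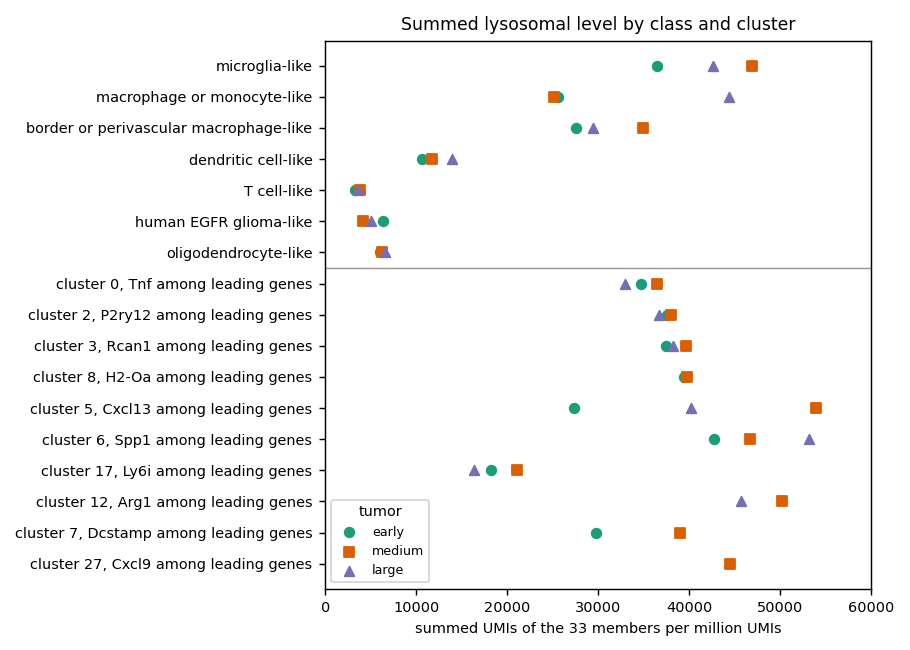
Summed CPM of the 33 members for 7 classes (above the line) and for 10 clusters of CD45+ cells named by a leading gene (below it), with 1 symbol per tumor. Microglia-like values lie between 36409 and 46908, dendritic cell-like values between 10631 and 13969, and the 2 macrophage or monocyte-like clusters 12 and 17 lie far apart.

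Against macrophage or monocyte-like cells, 3 of 32 members tested were higher in microglia-like cells and 0 were lower (4.43% and 5.07% of 9750 genes, and 9.50% in either direction). Ctsk was too sparse to test in any class contrast. Ctsf was at 92.1, 65.3 and 82.7 CPM in microglia-like and at 20.6, 9.45 and 18.8 in macrophage or monocyte-like cells, with a log2 fold change of 2.27 ± 0.39 (SE, adjusted p = 0.00048). Legumain, Lgmn, the asparaginyl endopeptidase that also matures other cathepsins, was at 3394, 2868 and 3314 against 591, 867 and 2031, with 1.48 ± 0.43 (adjusted p = 0.0361). Ctso was at 73.7, 67.2 and 51.7 against 20.6, 32.1 and 17.2, with 1.46 ± 0.37 (adjusted p = 0.0136). For all of these the microglia-like values lay above the others in every tumor. The macrophage or monocyte-like sums differed in makeup between tumors. Cluster 17, led by monocyte genes, was 78.8% and 86.6% of the cells in the early and medium tumors. Cluster 12, with Arg1 among its leading genes, was 95.3% in the large one. Cluster 7, given no class, was in neither side of this contrast.

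No glycosidase, lipid gene or membrane protein passed in that contrast. The members' median log2 fold change was 0.27 against 0.05 over all genes. Ctsc, the dipeptidyl peptidase that activates serine proteases of granules, had the most negative value at -0.85 ± 0.36 (adjusted p = 0.17), ahead of Gla at -0.78 ± 0.41 (adjusted p = 0.268) and Lipa, lysosomal acid lipase, at -0.63 ± 0.29 (adjusted p = 0.207). Gaa (0.36), Npc1 (0.51), Laptm5 (0.80), Ctsa (0.21) and Cd63 (-0.36) did not pass either. Ctso lost its call when any tumor was left out and Lgmn when the medium tumor was. A fit of the 2 classes alone gave 5 higher and 1 lower, adding Ctsl, Laptm5 and, lower, Ctsc. The number higher was 11 when each cell was classed by its own markers, 6 without the glioma-like cluster of few EGFR cells, 5 in run 1 and 0 in run 2.

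Border or perivascular macrophages, which lie along vessels and meninges, were set against microglia next. Of 32 members, 3 were higher in microglia-like cells and 1 was lower, Ctsc, beside 3.14% and 3.96% of 9750 genes (7.10% in either direction), so the number lower was near the share of all genes. Ctsc was at 602, 991 and 793 CPM in microglia-like and at 2270.5, 2202 and 1623 in border macrophage-like cells, a log2 fold change of -1.32 ± 0.37 (adjusted p = 0.0293). Ctsf went the other way (1.92 ± 0.41, adjusted p = 0.00426), and so did Scarb2, the receptor that carries glucocerebrosidase to lysosomes (1.19 ± 0.33, adjusted p = 0.0252).

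Ctsd was at 6859, 10824 and 9235 CPM in microglia-like and at 1810, 4359 and 3054 in border macrophage-like cells (log2 fold change 1.58 ± 0.45, adjusted p = 0.0425). Within each tumor the microglia-like value was higher. Ctsb was the most abundant member of border macrophage-like cells, at 6248, 8671 and 6466 against 4020, 7008 and 5622, a difference of -0.35 ± 0.37 that did not pass (adjusted p = 0.724). Man2b1 (0.53), Npc1 (1.24, adjusted p = 0.0631), Ctsa (0.05), Neu1 (-0.64), Asah1 (-0.45) and Cd68 (-0.42) did not pass. The members' median was 0.05, as over all genes (0.05). All 4 calls were lost when the medium or the large tumor was left out and in run 2 alone, and that of Ctsc also without the early tumor and with a class per cell. The fit of the 2 classes alone gave 9 higher.

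Dendritic cells, which present antigen, had a lower members' sum than microglia-like and both macrophage classes in every tumor. Of 32 members, 23 were higher in microglia-like cells and 0 were lower, beside 9.15% of 9750 genes higher and 8.73% lower (17.9% in either direction), and the median log2 fold change was 1.77 (all genes 0.15). All 4 other proteases passed, as did 6 of 8 cysteine cathepsins, 4 of 7 glycosidases, 3 of 6 lipid genes and 6 of 7 membrane proteins. Ctsd was at 190, 220 and 439 CPM in dendritic cell-like cells, giving 5.06 ± 0.54 (adjusted p = 4.5e-06), and Lgmn at 157, 163 and 257 gave 4.06 ± 0.49. Ctsf was seen in the early dendritic cell-like sum with 1 UMI (4.76 CPM) and with 0 UMIs in the medium and large sums, where upper 95% Poisson limits were 10.5 and 30.5 CPM. Its fitted log2 fold change of 5.60 ± 0.74 therefore rests on 1 UMI.

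The members that did not pass against dendritic cells were Psap, Npc2, Lipa, Ctsh, Ctss, Gla, Gusb, Neu1 and Laptm5. Psap, whose product is cut into the saposins that present lipids to hydrolases, was at 3323, 4783 and 4858 CPM in dendritic cell-like and at 3273, 5482 and 4384 in microglia-like cells. Its log2 fold change was -0.01 ± 0.31 (adjusted p = 0.993), and Psap made up 31.3% to 40.8% of the members' UMIs in dendritic cell-like cells. Ctsh, an aminopeptidase, gave 0.48 ± 0.36, Laptm5 1.10 ± 1.03 and Gla 0.05 ± 0.51, while Gaa (2.02 ± 0.57), Grn (2.06 ± 0.29), Cd63 (2.55 ± 0.71) and Ctsa (1.94 ± 0.30) passed. Laptm5 stayed between 1.09 and 1.20 without single tumors, and its SE rests on a spread shared with the other classes. The fit of the 2 classes alone gave 26 members higher and 0 lower, beside 1292 of 11028 genes higher and 1002 lower. When each cell was classed by its own markers without clusters, 16 members passed while Ctsb, Ctsd, Ctsz, Ctsc, Gaa, Glb1, Man2b1, Asah1 and Cd63 no longer did and Ctss and Laptm5 newly did. With that classing the dendritic cell-like summed level was 19163, and in the medium tumor it was above that of macrophage or monocyte-like cells (22234 against 20360.1).

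Tumor cells had a far lower members' sum than microglia-like cells. Against human EGFR glioma-like cells of the CD45- sort, 27 of 32 members were higher in microglia-like cells and 0 were lower, beside 19.2% and 19.4% of 9750 genes (38.6% in either direction), and the median log2 fold change was 2.53 (all genes -0.08). All 8 cysteine cathepsins tested and all 4 other proteases passed. Ctss was at 6009, 6081 and 5259 CPM in microglia-like cells and at 204, 0.876 and 1.95 in glioma-like cells, a log2 fold change of 8.60 ± 1.77 (adjusted p = 0.0041). The medium and large values came from 2 and 13 UMIs. Laptm5 (7.79 ± 1.53), Lgmn (4.97 ± 0.51), Man2b1 (4.20 ± 0.31) and Grn (3.91 ± 0.31) were the largest changes of their role groups, and Ctso (1.44 ± 0.35) and Tpp1 (1.62 ± 0.33), the tripeptidyl peptidase, the smallest of theirs.

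Gaa (0.82), Npc1 (0.54), Cd63 (1.06), Laptm4a (0.25) and Scarb2 (0.59) did not pass against glioma-like cells. Laptm4a was at 367, 652 and 524 CPM in glioma-like and at 583, 481 and 449 in microglia-like cells, so its direction differed between tumors. The early glioma-like sum was small and mixed: 53 cells, of which 71.7% came from cluster 26, where 21.8% of the cells held a human EGFR transcript. The 8 microglia markers summed to 432 CPM there, with 0 of them undetected, against 42.5 and 151 in the medium and large sums, and their part in the early values was not tested. Leaving out that cluster dropped the early sum and gave 28 members higher. A fit of the 2 classes alone gave 29 higher and 0 lower, beside 2536 of 14430 genes higher and 2483 lower. Without composition factors 25 members were higher, and the split over all genes went from 1873 higher and 1894 lower to 1448 and 3003.

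**Figure D3:**
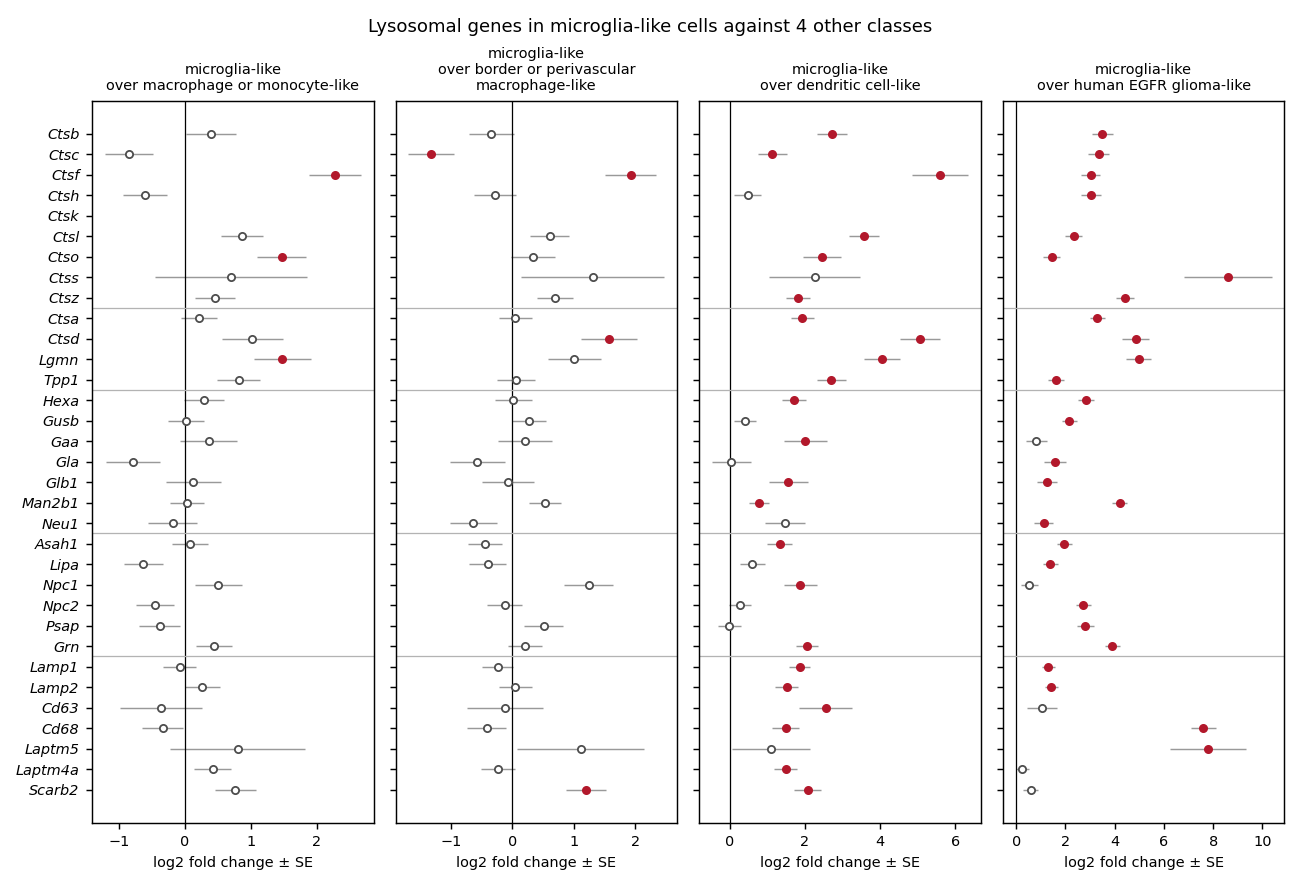
Log2 fold change ± SE from edgeR for each member (Ctsk not tested) in microglia-like cells over 4 other classes, with filled red points at an adjusted p under 0.05 and open points otherwise. Few points are filled in the 2 panels against macrophages, while 23 and 27 are filled against dendritic and glioma-like cells; the axes differ between panels.

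The macrophage or monocyte-like class consisted of a pair of clusters with different lysosomal content. Cluster 17, led by Ly6i, Plac8 and Ccr2, genes of monocytes, held 78.8%, 86.6% and 4.68% of the class in the early, medium and large tumors, and cluster 12, led by Arg1, Gpnmb and Retnla, held the rest. The summed level was 18270, 21037 and 16406 CPM in cluster 17. It was 50181 (31 cells) and 45691 (428 cells) in cluster 12 of the medium and large tumors, above the microglia-like class as a whole in both. Ctsd was at 856 and 614 in cluster 17 of these tumors and at 11801 and 9099 in cluster 12. Cd63, a tetraspanin of late endosomes, was at 48.3 in cluster 17 against 1069 in cluster 12 of the medium tumor, and Lgmn at 652 and 343 against 2192 and 2108. The 8 microglia markers summed to 586, 312 and 977 CPM over the class, against 9735, 4748 and 7016 in microglia-like cells, and their part in the members' values was not tested. Ctsc and Ctss differed less between the clusters, with Ctsc at 1651 and 1227 in cluster 17 and at 1367 and 1400 in cluster 12.

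Microglia-like clusters also fell apart. Clusters 0, 2, 3 and 8 lay between 32943 and 39708 in every tumor with enough cells. Cluster 5 was at 27353, 53881 and 40240 and cluster 6 at 42773, 46728 and 53167. In the pooled values, clusters 5 and 6 had Ctsd at 12551 and 12244 CPM, against 6037 to 7871 in clusters 0, 2, 3 and 8, and Cd63 at 626 and 904 against 195 to 319. Pooling mixes cluster with tumor: cluster 5 held 105, 699 and 25 cells of the early, medium and large tumors. Most cells of clusters 0, 2 and 3 were early. In the early tumor the summed level of cluster 5 was below that of clusters 0, 2, 3 and 8, and its early Ctsd level is given with the stage ratios below. Ctsf was 44.0 in cluster 5 and 74.1 in cluster 6 against 88.2 to 101 in those 4. No test was run between clusters, which were formed from the same cells.

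**Figure D4:**
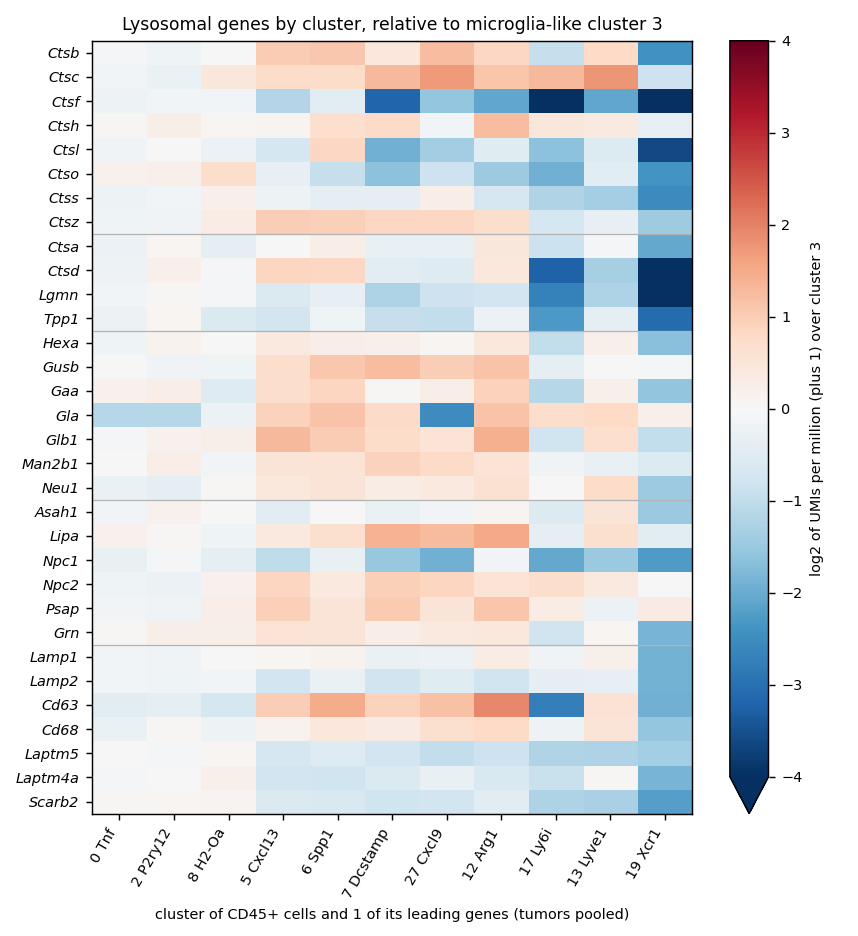
Pooled level of 32 members (all but Ctsk) in 11 clusters of CD45+ cells, as the log2 ratio of CPM plus 1 over microglia-like cluster 3, with values under -4 drawn at -4. Clusters 5, 6 and 12 are red for Ctsd, Ctsb and Cd63, cluster 17 is blue for Ctsd, Lgmn and Cd63, cluster 19 (dendritic cell-like) is blue for nearly all members, and cluster 13 is red for Ctsc. Tumors are pooled, and most cells of cluster 5 came from the medium tumor and most of cluster 12 from the large one.

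With 1 tumor per stage, changes with stage were read as ratios against 1.5-fold, with no test. In microglia-like cells, 10 of 32 members were past 1.5-fold higher in the medium over the early tumor and 0 were lower, beside 15.5% and 20.7% of genes. Ctsb was 1.74-fold its early level, Ctsz 1.81-fold, Ctsc 1.65-fold, Ctsd 1.58-fold, Psap 1.67-fold, Npc2 1.70-fold, Gusb, the beta-glucuronidase, 1.52-fold, Glb1, the beta-galactosidase, 2.03-fold, Cd63 1.97-fold and Gla 2.48-fold. In the large over the early tumor 5 were higher and 0 lower (16.6% and 11.3% of genes), so the number higher was near the share of all genes of at least 10 UMIs. These were Ctsl (1.68-fold), Gusb (1.74-fold), Glb1 (1.76-fold), Cd63 (2.03-fold) and Gla (2.46-fold). Among genes of at least 50 UMIs, 11.2% were higher and 7.26% lower for the same ratio, where 5 of 32 members were higher and 0 lower. Ctsl, a cathepsin of general protein turnover, was at 457, 316 and 767 CPM, so that it was 2.43-fold higher in the large over the medium tumor. Npc1 (1.54-fold) was the other member past the limit there and 0 were lower (21.2% and 11.2% of genes), so the members did not exceed these shares. Leaving out technical libraries singly moved the number past the limit in the large over the early tumor to between 5 and 8, the highest without library 8.

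The makeup of the class moved with these ratios. Cluster 5 was 2.50%, 42.5% and 1.96% of microglia-like cells in the early, medium and large tumors and cluster 6 was 4.74%, 11.2% and 27.1%. Between 0 and 5 members were past 1.5-fold in either direction within clusters 0, 2 and 3, for each pair of tumors, and 1, a lower one, within cluster 8, which had enough cells in the early and medium tumors only. Of all genes of at least 10 UMIs, most of them sparser than the members, 19.3% to 27.1% were past the limit higher and 13.2% to 26.2% lower within clusters 0, 2 and 3, and 18.1% were lower within cluster 8. Within cluster 5, 19 members were higher and 1 lower in the medium over the early tumor, among them Ctsb (2884 and 9043 CPM) and Ctsd (4823 and 13768), with 105 early cells and 20.5% of genes higher and 31.3% lower. Within cluster 6, 9 were higher and 2 lower in the large over the early tumor, with Ctsl at 598 and 1124, a number higher that is near the share of all genes (28.7% higher and 18.4% lower). In the medium over the early tumor 1 was higher and 0 lower there (25.8% and 17.2% of genes), and in the large over the medium tumor 4 were higher and 2 lower (21.1% and 18.4%). Markers of macrophages or monocytes, summed over 10 genes, were at 90.1, 233 and 565 CPM in the early, medium and large microglia-like cells, and the 8 markers of microglia at 9735, 4748 and 7016. Their part in the ratios was not tested.

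Gla, alpha-galactosidase A, and Lamp2 are X-linked, and Xist, the transcript of the inactive X chromosome, was at 315, 2.22 and 0.989 CPM in microglia-like cells of the 3 tumors. Gla was at 14.8, 36.7 and 36.3 in microglia-like cells and at 51.4, 43.4 and 50.9 in macrophage or monocyte-like cells of the same tumors, and Lamp2 was at 336, 256 and 299 in microglia-like cells. Xist was thus high in the early sample alone, also in CD45- cells (139, 1.68 and 2.83 CPM). A difference in sex between the tumors cannot be told apart from stage in any ratio over the early tumor. Its part in the Gla ratio was not tested.

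In macrophage or monocyte-like cells, 18 of 32 members were past 1.5-fold higher in the large over the medium tumor and 1 was lower (25.7% and 22.6% of genes). Cd63 was at 191 and 1146 CPM in the medium and large tumors, Npc1 at 34.0 and 144, Glb1 at 34.0 and 135, and Ctsd at 2384 and 8730. Gaa was 2.94-fold, Tpp1 2.74-fold, Lipa 2.52-fold, Lgmn 2.34-fold, Hexa, the alpha subunit of beta-hexosaminidase, 2.20-fold and Ctsb 2.19-fold the medium level. Gusb (2.07-fold), Ctsa (1.86-fold), Ctsf (1.85-fold), Ctsz (1.85-fold), Grn (1.79-fold), Ctsl (1.73-fold), Cd68 (1.60-fold) and Scarb2 (1.51-fold) completed the list. Ctso was lower (32.1 and 17.2), although the counting intervals of Ctso and Ctsf included no change. The class went from mostly cluster 17 to mostly cluster 12 between these tumors, and its summed monocyte or macrophage markers went from 5603 to 1970 and its microglia markers from 312 to 977. Within run 2, the run with enough cells of both stages, 20 were past the limit.

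In border or perivascular macrophage-like cells, 4 members were higher and 5 lower in the medium over the early tumor (24.9% and 21.3% of genes). Neither number exceeded the share of all genes. Ctsd (2.41-fold), Gusb (2.69-fold), Ctsh (1.64-fold) and Psap (1.59-fold) were higher, and Ctsl, Asah1, Scarb2, Npc1 and Ctsf lower. The counts behind Npc1 (33 and 11 UMIs) and Ctsf (15 and 5) were small. Leaving out technical libraries singly gave 4 to 5 higher and 2 to 5 lower, with 5 and 2 without library 4 and 5 and 3 without library 7. No run held enough of these cells at both stages.

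In glioma-like cells, 11 of 33 members were higher and 1 lower in the large over the medium tumor (18.6% and 14.0% of genes). Ctsh was at 12.7 and 71.8 CPM, Ctsc at 36.8 and 120, Glb1 at 24.5 and 72.2, and Hexa at 74.4 and 196. Ctsz (2.01-fold), Ctsf (1.69-fold), Cd63 (1.60-fold) and Scarb2 (1.50-fold) followed, and Ctss, Laptm5 and Cd68 were past the limit on 18 UMIs or fewer each. The summed microglia markers given above were also higher in the large than in the medium glioma-like sum, and their part in these ratios was not tested. Ctsk was at 6.57 and 0.899. Cluster 11, led by Fbln2, Tnc and Col5a2, was 1.17% of the medium and 47.2% of the large glioma-like cells, and its summed level was 6504 against 2639 in cluster 9 of the same tumor, led by human EGFR and with Sox3 among its leading genes. Within cluster 9, 0 of 28 members were higher and 6 lower in the large over the medium tumor (19.4% and 15.0% of genes).

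**Figure D5:**
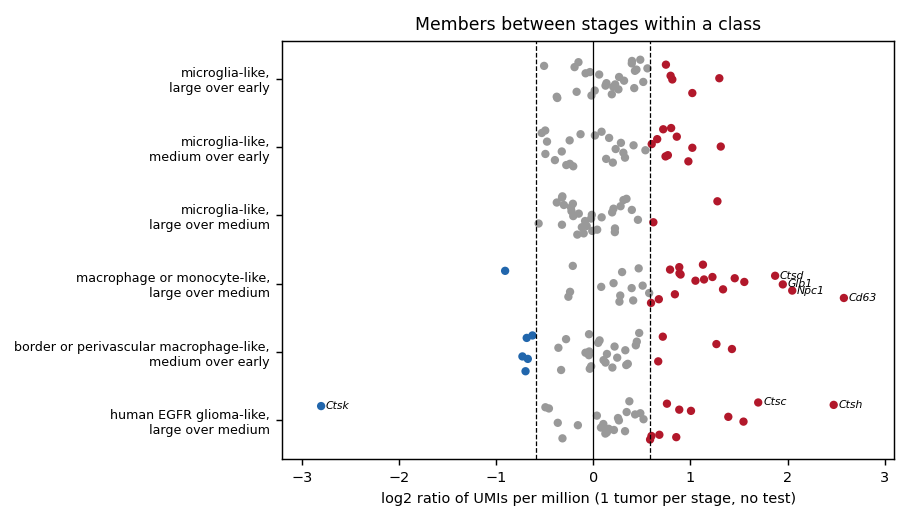
Log2 ratio of CPM between stages within 4 classes, with 1 point per member of at least 10 UMIs (jittered vertically), dashed lines at 1.5-fold and no test. In macrophage or monocyte-like cells 18 points lie right of the upper line, led by Cd63, and in glioma-like cells Ctsh and Ctsc lead while Ctsk is lowest.

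The rest of the pathway was followed over 68 other genes, whose counts between the sorts stand beside the 20.4% of all genes higher and 25.7% lower. Of 25 other hydrolases and activators, 17 were higher and 2 lower in CD45+ cells, led by Acp5, the tartrate-resistant phosphatase (log2 fold change 4.99). Both other cathepsins tested, Ctsw (5.82) and Ctse (5.47), were higher. Of 4 cystatins tested, the inhibitors of cysteine cathepsins, Cst7 (5.33) and Cst3 (3.74) were higher. Of 15 subunits of the proton pump that acidifies lysosomes, 0 were higher and 2 lower, Atp6v1a (-0.95) and Atp6v1e1 (-0.76). Among 6 sorting genes, Nagpa (2.20) and M6pr were higher and Igf2r (-1.29), Sort1 and Gnptab lower. Among 11 regulators and channels 6 were higher and 0 lower, with Gpnmb (3.98) and Tfe3 (2.08) ahead.

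When microglia-like cells were set against the macrophage or monocyte-like class (4.43% of all genes higher and 5.07% lower), Gpnmb, a glycoprotein of lipid-laden phagocytes (-3.47, adjusted p = 3.45e-05), Acp5 (-2.26), Ctse (-2.03) and the cytosolic inhibitor Cstb (-1.37) were lower, and Cst3 (2.47), Sort1, the sorting receptor sortilin (2.29), and Arsb, arylsulfatase B (2.21), were higher. Cst3, Sort1 and Arsb were also higher over border macrophage-like cells (2.06, 2.80 and 1.76, with 3.14% of all genes higher and 3.96% lower), where Hgsnat (-2.69), Scpep1 and Cstb were lower. Of 24 other hydrolases tested, 1 was higher and 1 lower in the first of these contrasts and 1 and 2 in the second. Of 15 pump subunits 0 passed in either. Over all lists the numbers called were near the shares of all genes. Against dendritic cell-like cells 7 of 24 other hydrolases were higher and 3 lower, beside 9.15% and 8.73% of all genes, led by Pla2g15 (4.14), with Gm2a and Ppt1 among the lower ones. Both Sort1 (2.65) and Nagpa (2.13) were higher among the 6 sorting genes, as were Mitf (3.37), Tfe3 and Cln3 among 10 regulators. Against glioma-like cells 15 of 24 hydrolases were higher and 0 lower, beside 19.2% and 19.4% of all genes, and Cst7 (10.1) and Cst3 (5.73), the cystatins with the largest change, stood beside 4 pump subunits higher and 1 lower of 15.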

How the data were processed

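Viable CD45+ and CD45- cells of 3 tumors were profiled by inDrop, in which each captured transcript carries a unique molecular identifier (UMI). The authors pseudo-aligned the reads with RapMap in bcbio-nextgen to the GRCm38 transcriptome with transgene sequences added, and removed empty droplets. The count table holds 3 transgene rows: human EGFR, human TGFA and iCre. The labels name mm10 as the build. The deposited table holds UMI counts, whole numbers that were not normalized, with genes in rows and cells in columns. Text annotation deposited by the authors ties each cell to its library, run, stage and sort. The study's methods also describe removal of ambient RNA and of doublets, and the sources used here do not say whether that came before deposit.

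Cells under 500 UMIs or 500 genes, or above 20% mitochondrial UMIs, were left out (few genes in 2141 cells, mitochondrial share in 2278, and too few UMIs in 0). Doublets were called per library with the Scrublet method in scanpy 1.11.5. Cells were clustered with Leiden on 2000 variable genes and 40 components without any member or other lysosomal gene, and clusters were named from marker lists. The choice of variable genes by Pearson residuals and of 10 neighbours was made after a first clustering had merged dendritic cell and monocyte markers. UMIs were summed per tumor and sort, or per tumor and class with at least 20 cells, and tested with edgeR 4.0.16 (quasi-likelihood, TMM factors, tumor as a block) over all genes past its filter on low counts, with Benjamini-Hochberg adjustment. The sums of the 2 sorts, and of each pair of classes, come from the same tumors, so the block pairs them by origin. All classes of the contrasts were fitted together, so each contrast uses an estimate of spread that they share. The deviations from the group means correlated within a tumor at 0.266 to 0.374 between sorts and at 0.0495 to 0.292 between classes. DESeq2 1.42.0 and the other alternatives are listed in the closing section. The fitting was tested on simulated data. Stage ratios, with 1 tumor per stage, have no test and were read against a 1.5-fold limit for genes of at least 10 UMIs. Members were named with values by role group: the most positive and most negative fold change, members whose call went against most of their group, those past the stage limit and the most abundant. In each list of other lysosomal genes, the 2 with the largest fold change were to be named. Some items, among them genes of these lists, a leading gene of a cluster and an allele of the mice, are not reported here. Further members were named after their values had been seen. Members and lists were chosen with earlier results of these data known. Poisson intervals cover counting error only.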

Additional observations from a re-analysis of the deposited data

Results flagged for a closer look

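On the CPM scale, the members Lamp1, Laptm4a and Scarb2, all membrane proteins, went in opposite directions between the sorts in different tumors. The log2 ratio of CD45+ over CD45- CPM (UMIs per 1000000) in the early, medium and large tumors was -0.10, -0.33 and 0.29 for Lamp1, 0.26, -0.55 and -0.20 for Laptm4a, and 0.16, -0.62 and -0.42 for Scarb2. These ratios leave out composition factors. Fitting without factors moved the median log2 fold change of all genes from -0.04 to -0.40, so signs of small ratios can depend on the scaling. With 1 tumor per stage the difference between tumors was not tested.

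Cells that entered the comparison of the sorts but no contrast between classes also held a high summed level of the members. Cluster 7, led by Dcstamp, Ch25h and Cxcl9 and given no class, was at 29734 CPM in the early and 38998 in the medium tumor, from 34 and 655 CD45+ cells. Cluster 27, led by Cxcl9 and Ch25h, was at 44430 in the medium tumor, from 128 cells. Cells without a class held 23.8% of the members' UMIs of the medium CD45+ sort.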

How the results depend on the processing

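Alternatives were another scaling, no filter on low counts, DESeq2, no tumor block, each tumor or technical library left out, each run alone, other doublet limits, a class per cell without clusters, a fit of 2 classes alone, resolution 2, and, for stage, 2-fold in place of 1.5-fold. Leaving out the glioma-like cluster of few EGFR cells and the cells of shared barcodes was chosen after seeing the data. Run 1 alone could not be fitted against border macrophage-like and dendritic cell-like cells, which were too few.

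Without the replicate block, which pairs the sums of a tumor, 26 members were higher and 0 lower in CD45+ cells, and 2, 2, 20 and 25 were higher over macrophage or monocyte-like, border macrophage-like, dendritic cell-like and glioma-like cells. Without single tumors the number higher was 24 to 24 between sorts (1 to 1 lower), and 1 to 3, 0 to 4, 17 to 20 and 24 to 28 over the classes. The 1 member lower in CD45+ cells became 2 without factors, and 0 without the filter and in run 2 alone. Over macrophage or monocyte-like cells the 3 higher became 5 in run 1, 0 in run 2, 11 with a class per cell, 5 in the 2-class fit (with 1 lower) and at resolution 2, and 6 without the low-EGFR cluster. Over border macrophage-like cells the 3 higher became 5 without the filter and with a class per cell, 0 in run 2, 9 in the 2-class fit, and 7 at resolution 2 and without the low-EGFR cluster. The 1 lower became 0 without any single tumor (0 to 0), once cells of top doublet scores were removed, in run 2, with a class per cell and without the low-EGFR cluster. Over glioma-like cells 1 became lower without the filter (Ctsk).

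At 2-fold, 2, 2 and 1 members passed in microglia-like cells (large over early, medium over early, large over medium) in place of 5, 10 and 2, and 11, 2 and 6 in macrophage, border and glioma-like cells in place of 19, 9 and 12. Large over medium gave 4 in run 2 and 4 in run 3, and 1 to 3 without single libraries; large over early gave 5 to 8. Without the most abundant member the mean summed level was 26516 (CD45+), 5622 (CD45-), 32989.7 (microglia-like), 23495 (border) and 7791 (dendritic). With a class per cell it was 19163 in dendritic cell-like and 4039 in glioma-like cells (2 tumors).

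Members near 0 changed sign. Ctsa over border macrophages gave -0.0014 to 0.21 without single tumors, -0.0115 in run 3 and -0.0017 with a class per cell, where Gla over dendritic cells gave -0.40 to 0.54, -0.23 and -0.32. Psap over dendritic cells gave -0.0703 to 0.13 without single tumors (0.0444 without the large), 0.0249 without factors, 0.22 without the filter, 0.00316 with doublets kept, 0.0394 without top doublet scores, 0.0771 in run 2, 0.22 in run 3, 0.0464 in the 2-class fit, 0.0605 without shared barcodes and 0.00901 without the low-EGFR cluster. Laptm4a over glioma-like cells gave -0.051 to 0.43 without single tumors, -0.11 without factors and -0.41 in run 1. Cd63 over macrophage or monocyte-like cells gave -0.92 to 0.32 without single tumors, 0.76 in run 1 and 0.35 with a class per cell, and Gaa over the same cells gave -0.0192 in run 1. The cause of these changes was not tested. Small classes limit the depth, down to 47 dendritic cell-like and 53 glioma-like cells in a tumor.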

Other observations

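The members that did not pass the test between the sorts had their highest levels in particular CD45- classes (mean ± SD, n = 3 tumors, no test). Oligodendrocyte-like cells were at 1194 ± 68.8 CPM (UMIs per 1000000) for Lamp1, at 418 ± 61.4 for Npc1 and at 418 ± 27.8 for Scarb2. Fibroblast-like cells were at 1485 ± 163 for Laptm4a and endothelial-like cells at 1044 ± 30.9, and neuron-like cells were at 379 ± 29.6 for Gaa. Astrocyte-like cells were at 168 ± 70.3 for Ctso, with tumors from 87.2 to 214. Ctsa, the protective protein of beta-galactosidase and neuraminidase, was at 893 ± 220 in endothelial-like cells. These cells had 646, 1069.8 and 963 from the early to the large tumor, where microglia-like cells had 537, 601 and 731, so the endothelial-like level was the higher one within 3 of 3 tumors. Ctsk was at 366 in mast cell or basophil-like cells, which were numerous enough in the medium tumor alone. Plasmacytoid dendritic cell-like cells, 40 cells of the medium tumor, were at 20526 for the members' sum, with Ctsl at 1030.1 and Grn at 2939.5.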
